A study of Caenorhabditis elegans with 12 samples.

Results

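The transcriptome of *C. elegans* animals lacking both mitochondrial disulfide reductases was compared with that of wild-type controls. The comparison took every library labelled as the *gsr-1(syb266) trxr-2(tm2047)* double mutant, 3 of them, and every library labelled wt, also 3, out of 12 libraries sequenced for 4 strains. The *syb266* allele is a CRISPR-Cas9 deletion of the first exon of *gsr-1*, which encodes the mitochondrial targeting sequence of the GSR-1a isoform of glutathione reductase, while the cytosolic isoform GSR-1b is kept. The *tm2047* allele is a null allele of *trxr-2*, the gene of the mitochondrial thioredoxin reductase. Both genes lie on chromosome III, the double mutant (*gsr-1a trxr-2* below) combines both alleles, and wild type was the N2 strain. Animals of all strains were whole worms, synchronized by bleaching and collected as young adults. Each genotype was 1 strain, so any further difference in the genetic background of a strain cannot be told apart from the mutations.

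Thioredoxin and glutathione are the carriers of reducing power that keep protein thiols reduced and that feed peroxide-removing enzymes. Each needs its own reductase, which takes electrons from NADPH, and mitochondria hold their own set of these enzymes. Worms answer mitochondrial protein damage with the mitochondrial unfolded protein response (UPRmt), in which the transcription factor ATFS-1 raises chaperones such as HSP-6 and HSP-60. They also have large families of secreted lectins, lysozymes and proteases, mostly made by the intestine, and of detoxifying enzymes, which respond to infection, toxins and stress.

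Read pairs were counted per gene, and levels are given as CPM, a gene's counts relative to all counts of its library, after TMM normalization, a scaling that makes libraries comparable. Values within a strain follow the order of replicates 1, 2 and 3. The libraries held 15555063, 17721491 and 15109955 counts in *gsr-1a trxr-2*, against 12114187, 17915928 and 19688212 in wild type. Wild-type replicate 1 stood apart. The vitellogenin (*vit*) genes of yolk took 3.57%, 3.6% and 4.14% of the counts in *gsr-1a trxr-2*, against 0.342% in this library and 4.73% and 4.51% in wild-type replicates 2 and 3. *myo-3*, a myosin of body wall muscle, had 147, 139 and 137 CPM in *gsr-1a trxr-2*, against 6.96, 81.7 and 93.6 CPM in wild type. Results that turn on this library are given with and without it.

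The count of *trxr-2* (III, 8913769 to 8916450 of WBcel235, forward strand) followed the labels. It had 1, 1 and 0 counts in *gsr-1a trxr-2*, against 202, 240 and 264 counts in wild type. Summed over libraries and scaled, this was 0.305% of wild type, with an exact 95% counting interval of 0.0369% to 1.11%. *gsr-1* (III, 3650905 to 3652973) had 265, 251 and 259 CPM in *gsr-1a trxr-2*, against 342, 254 and 261 CPM in wild type. These levels overlap and the difference was not called (log2 fold change -0.14, SE 0.13, edgeR adjusted p = 0.47). The count covers the whole gene and cannot show the loss of its first exon.

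Of 15004 genes with enough counts to be tested, 1879 were higher and 945 lower in *gsr-1a trxr-2* (edgeR's quasi-likelihood test, Benjamini-Hochberg adjusted p under 0.05, referred to as called). This is 18.8% of genes tested, 12.5% in the higher and 6.3% in the lower direction, and it is the background against which each gene family below is read. Past a fold of 2 there were 1631 higher and 251 lower genes, so that most rises were large and most falls were small. The 3 levels of one strain all lay outside those of the other for 6838 genes (45.6% of genes tested), of which 3593 were higher and 3245 lower in *gsr-1a trxr-2*. Every count of calls depended on which libraries were in. In fits that left out 1 of the 6 libraries, the number of higher genes ranged from 1197 to 1859 and that of lower genes from 259 to 698, both lowest without *gsr-1a trxr-2* replicate 3. In all 6 of these fits, 1077 higher and 215 lower genes were called, and such genes are said below to have kept their call. Without wild-type replicate 1 there were 1496 higher and 601 lower genes.

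Among the genes tested, rises and falls fell on different ranges of expression. Among the 1803 genes that averaged under 1 CPM over the 12 libraries, 398 were higher (22.1%) and 29 lower (1.61%) in *gsr-1a trxr-2*. Among the 5249 genes from 1 to 10 CPM, 1092 were higher (20.8%) and 281 lower (5.35%). The order was the opposite in the 5788 genes from 10 to 100 CPM, where 344 were higher (5.94%) and 546 lower (9.43%), and in the 2033 genes from 100 to 1000 CPM, where 43 were higher and 89 lower. Above 1000 CPM, 2 of 131 genes were called, both higher: *asp-1* and *asp-6*. Of the higher genes, 830 averaged under 1 CPM in wild type. The mean over the 12 libraries includes *gsr-1a trxr-2*, and a gene can have enough counts to be tested through the strain in which it is high. How far this shapes the balance of higher and lower genes at low levels was not tested.

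**Figure D1:**
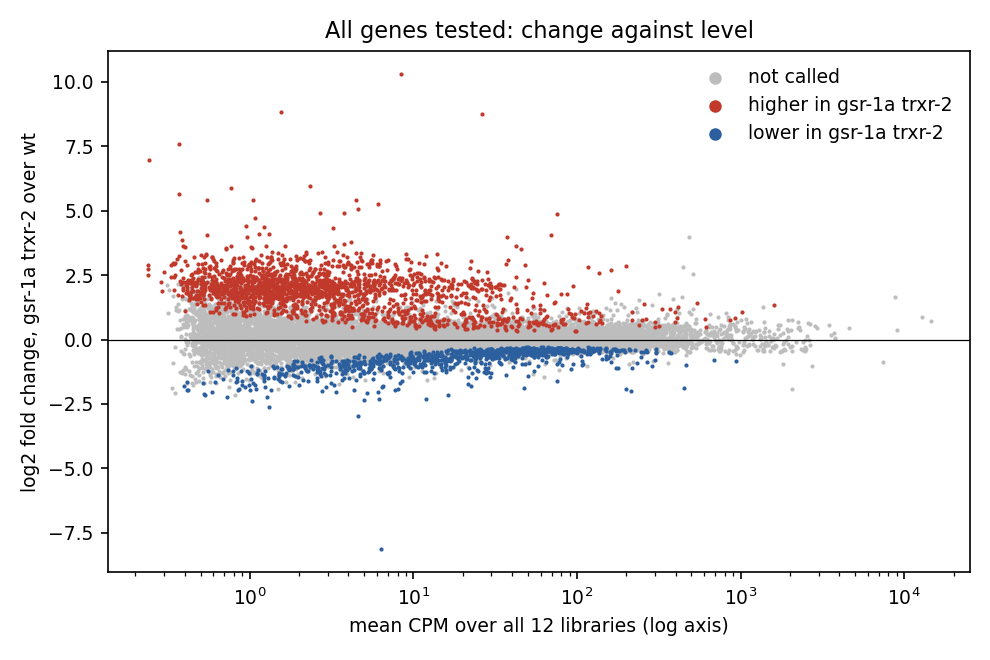
Each point is 1 of 15004 genes, with its mean CPM over the 12 libraries, *gsr-1a trxr-2* included, on a log axis and its log2 fold change (*gsr-1a trxr-2* over wild type) on the vertical axis. Genes called higher (1879, red) crowd at low levels with changes near a log2 value of 2, while genes called lower (945, blue) form a band of small changes at middle levels, and the lowest point, at -8.12, is *trxr-2*.

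The calls were also spread unevenly over the chromosomes. On chromosome IV, 462 of 2554 genes tested were higher (18.1%) and 152 lower (5.95%), while on the X chromosome 107 of 2105 were higher (5.08%) and 143 lower (6.79%). The X chromosome was the only nuclear chromosome with more lower than higher calls in this fit. Chromosomes I, II, III and V lay between, with 13.4%, 13.7%, 10.2% and 13.1% of their genes higher. The fewest higher calls on any fit without 1 library were 321 on chromosome IV and 54 on the X chromosome. Without replicate 1 of all 4 strains, 473 were higher and 273 lower on IV, and 166 were higher and 279 lower on X.

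**Figure D2:**
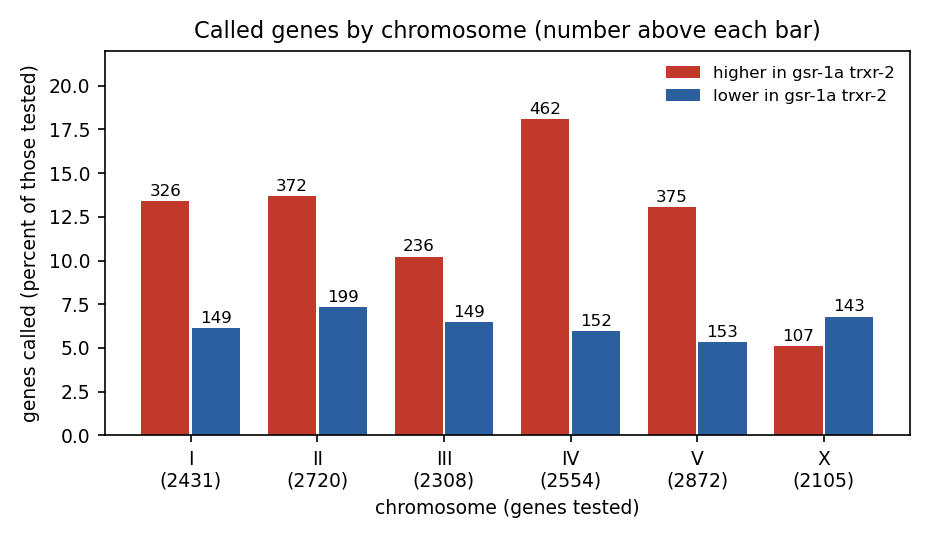
Bars give the percent of the genes tested on each nuclear chromosome that were higher (red) or lower (blue) in *gsr-1a trxr-2* than in wild type, with the number tested under each chromosome. The share of higher genes ran from 5.08% on X to 18.1% on IV, while the share of lower genes lay between 5.33% and 7.32% on all 6.

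The largest rises among genes with at least 5 CPM were led by genes that were nearly silent in wild type. *F22B3.7* (IV, 11417581 to 11421796) had 33.9, 32.8 and 33.9 CPM in *gsr-1a trxr-2*, against 0.0725, 0 and 0 CPM in wild type. That is 1638 counts against 1, a ratio of 1764 with an exact 95% counting interval of 316 to 69710. Its neighbour on the same strand, *F22B3.5* (IV, 11415598 to 11416824), had 46 counts in *gsr-1a trxr-2* and 0 in wild type, at least 16.5-fold higher, taking 3 counts over the wild-type group as the floor. *F47B10.4* (at least 25.5-fold) and the chemoreceptor gene *srw-85* (at least 62.8-fold) were the other genes called with no wild-type count. *F22B3.7* was at 0.123 CPM in *gsr-1a* and 0.0251 CPM in *trxr-2* animals on average, so high counts of it were found in the double mutant strain alone among the 4 strains.

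The next largest rises, all with groups that do not overlap, were those of *msp-76* (log2 fold change 8.77), a major sperm protein gene with 7 counts in all of wild type, *F55G11.7* (5.97), the P450 gene *cyp-14A4* (5.40), *B0205.14* (5.26), the lectin genes *clec-17* (5.06) and *clec-4* (4.89), *C04C3.14* (4.92), the claudin-like gene *clc-11* (4.91), *F33H12.7* (4.33), *cyp-33C8* (4.07), the aspartic protease gene *asp-8* (3.97), *cyp-13A12* (3.77), *F17C11.13* (3.69) and *pals-6* (3.64). Falls were shallower. After *trxr-2*, the largest were those of *F54E4.2* (log2 fold change -2.96), the metallothionein gene *mtl-2* (-2.31), *K09C4.5* (-2.30), *gid-8* (-2.15), *F07H5.13* (-2.09), *irg-5* (-2.04), the desaturase gene *fat-7* (-2.02), *E02H4.7* (-1.97), the cuticlin-like gene *cutl-2* (-1.95), the lysozyme gene *lys-4* (-1.94), *C27A7.8* (-1.91), the lysozyme gene *ilys-5* (-1.87), *W03F9.4* (-1.83) and *clec-218* (-1.82). *K09C4.5*, a gene on the X chromosome, may serve for the less known of these. It had 1.84, 2.33 and 1.97 CPM in *gsr-1a trxr-2*, against 11.5, 7.41 and 11.4 CPM in wild type. In absolute terms the largest gains in mean CPM were those of *asp-1*, *asp-6*, *clec-63*, *enol-1* and *fat-2*, and the largest losses those of *cpr-6*, *ilys-5*, *dct-16*, *hach-1* and *lys-4*, all of which are described below.

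**Figure D3:**
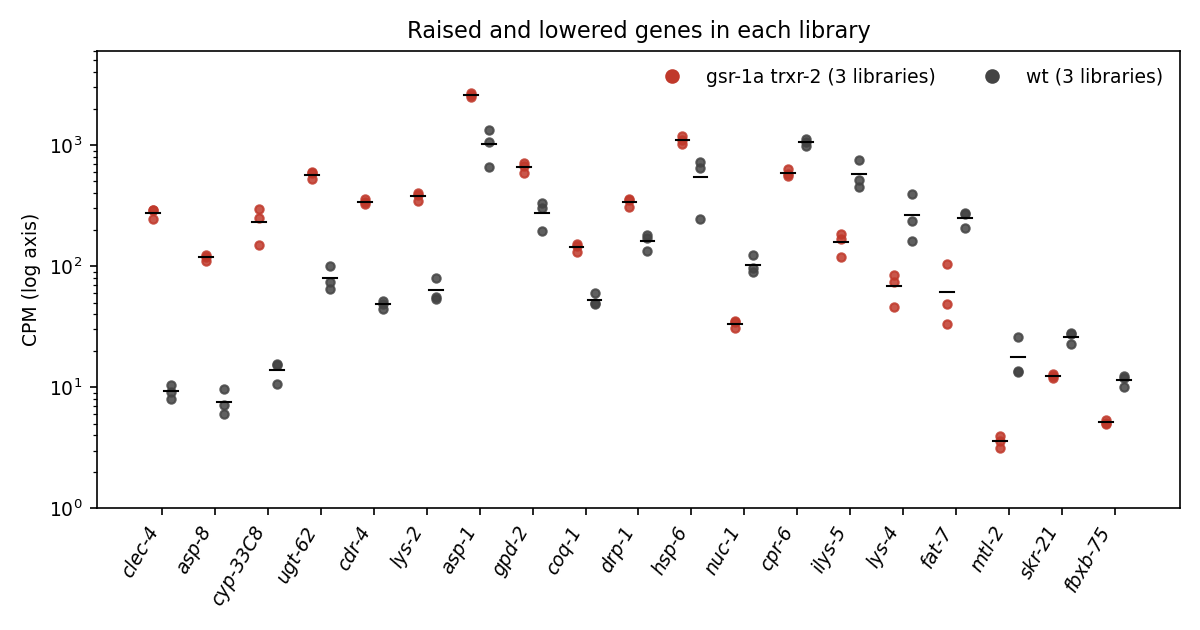
Points are single libraries and short lines group means, in CPM on a log axis, for genes raised and lowered in *gsr-1a trxr-2* (red, left of each pair) against wild type (grey). In all 19 genes shown the strains do not overlap, from *clec-4* at 247 to 289 against 8.05 to 10.4 CPM to *fbxb-75* at 4.98 to 5.33 against 10.04 to 12.3 CPM, and in *hsp-6* the lowest wild-type point is replicate 1.

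Of the gene lists tested, the major sperm proteins had the highest share called. Major sperm protein (MSP), encoded by the *msp* genes, is both the cytoskeletal protein by which nematode sperm crawl and a signal from sperm to oocytes. Of 31 *msp* genes in the files, 26 had enough counts to be tested, and those 26 were called higher and kept their call, with a median log2 fold change of 2.23 against 0.03 over all genes tested. Summed over the 26 genes, the level was 1484, 636 and 1330 CPM in *gsr-1a trxr-2*, against 202, 237 and 284 CPM in wild type. Replicate 2 had less than the other *gsr-1a trxr-2* libraries, but still over 2 times the highest wild-type library. *msp-55* had 79.8, 38.1 and 73.6 CPM in *gsr-1a trxr-2*, against 8.48, 12.36 and 16.03 CPM in wild type (log2 fold change 2.37, SE 0.36, edgeR adjusted p = 0.0020). Near-identical *msp* copies lose pairs that align to several places, so the values of single members are uncertain. Without replicate 1 of all 4 strains the median of the 26 genes was 1.86, and each was still called.

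Other genes of sperm formation rose alongside. Of 70 in the list used, 59 were tested, 45 were higher and none lower, 34 kept their call, and the median log2 fold change was 2.02. The called members act at different steps, beginning with the Argonautes *alg-3* and *alg-4*, which work with small RNAs in developing sperm. *alg-3* had 24.0, 15.4 and 26.9 CPM in *gsr-1a trxr-2*, against 0.943, 4.57 and 5.70 CPM in wild type (log2 fold change 2.53, SE 0.44, edgeR adjusted p = 0.0031), and *alg-4* rose by the same log2 fold change (2.53). In both genes the lowest library of *gsr-1a trxr-2* had over 2 times the highest wild-type library. *spch-3*, a protamine-like protein of sperm chromatin, had 30.1, 22.95 and 36.1 CPM in *gsr-1a trxr-2*, against 3.92, 6.64 and 5.99 CPM in wild type (log2 fold change 2.42, SE 0.32, edgeR adjusted p = 0.00085). *gsp-4*, a sperm protein phosphatase, had 29.8, 17.5 and 34.1 CPM in *gsr-1a trxr-2*, against 4.50, 5.39 and 7.07 CPM in wild type (log2 fold change 2.25). *spe-18* (2.22) and *ssq-2* (2.63), from the spermatogenesis and sperm-specific families, moved by a similar amount. Gene families known by symbol alone were counted as well, with 9 of 9 *nspd*, 7 of 8 *ttbk*, 7 of 10 *ssp* and 16 of 23 *spe* genes tested called higher and none lower, of which 4, 6, 6 and 13 kept their call.

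Genes of oocytes and eggshell did not move with the sperm genes. Of 50 tested, none was higher and 2 were lower, *gna-2* (log2 fold change -0.39) and *puf-8* (-0.37), and neither kept its call. Without replicate 1 of all 4 strains, 7 were lower and 1 higher, against 1741 and 2082 of the 15004 genes tested. The median log2 fold change of the 50 was 0.14, and -0.06 in that fit. The yolk receptor gene *rme-2* had 781, 742 and 754 CPM in *gsr-1a trxr-2*, against 234, 782 and 755 CPM in wild type, with only wild-type replicate 1 apart. RNA came from whole animals, so more sperm cells and more RNA per cell cannot be told apart in any of these values. The single mutants shared the wild-type libraries and are given side by side only. The 26 *msp* genes summed to 732, 450 and 374 CPM in *gsr-1a* and to 390, 191 and 159 CPM in *trxr-2*.

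**Figure D4:**
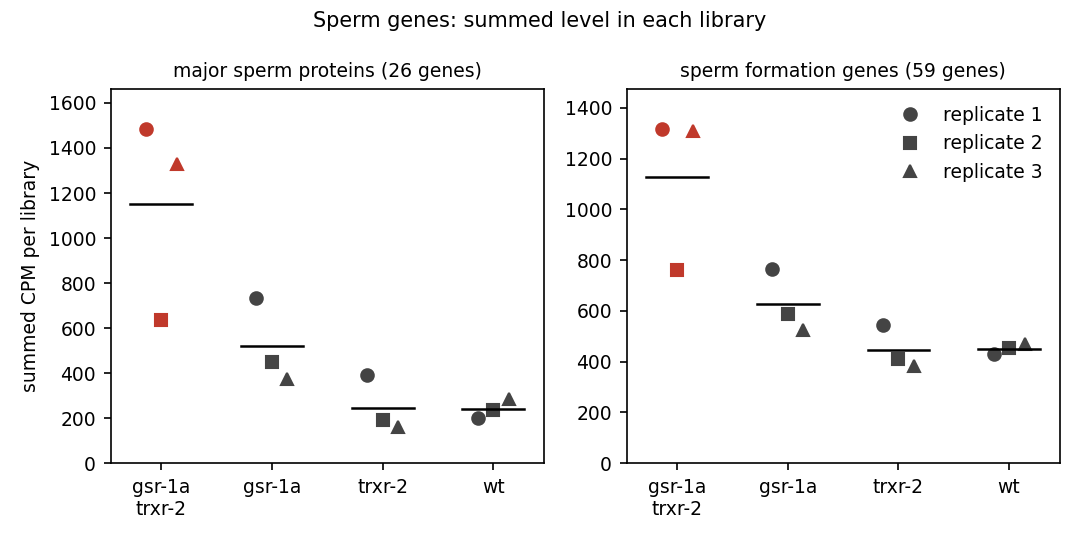
Summed CPM of the 26 *msp* genes tested (left) and of 59 genes of sperm formation tested (right), 1 symbol per library by replicate number with a line at the mean of each strain, axes starting at 0. The *gsr-1a trxr-2* libraries (red) lie at 636 to 1484 CPM for *msp* genes and at 759 to 1316 CPM for sperm formation genes, all above wild type at 202 to 284 and at 432 to 470 CPM.

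Genes of secreted and lysosomal proteins changed in both directions. The tissue in which they changed cannot be told from RNA of whole animals. C-type lectins, sugar-binding proteins of which many are secreted and respond to microbes, had 53 of 134 tested members higher (39.6%) and 8 lower, and 28 and 6 of these kept their call. Their median log2 fold change was 0.54. The number of higher lectins was 35 without *gsr-1a trxr-2* replicate 1 and 32 without wild-type replicate 2 or without *gsr-1a trxr-2* replicate 3. *clec-4* had 288, 289 and 247 CPM in *gsr-1a trxr-2*, against 8.05, 9.20 and 10.4 CPM in wild type (log2 fold change 4.89, SE 0.22, edgeR adjusted p = 5.7e-07). This is the step from a scarce to an abundant transcript, and the 3 libraries of a strain differed little. A run of 3 neighbours on chromosome II moved together in different size. *clec-63* (12895638 to 12897462) had 987, 843 and 964 CPM in *gsr-1a trxr-2*, against 302, 416 and 324 CPM in wild type (log2 fold change 1.42). *clec-65* (12901264 to 12903336) had 198, 184 and 177 CPM in *gsr-1a trxr-2*, against 64.5, 49.98 and 49.8 CPM in wild type (1.76). *clec-66* (12904398 to 12906686) had 134, 179 and 113 CPM in *gsr-1a trxr-2*, against 17.3, 20.3 and 19.6 CPM in wild type (2.90), so the least abundant of these in wild type rose most on the log2 scale. Lowered lectins included *clec-48*, with 28.8, 30.2 and 35.8 CPM in *gsr-1a trxr-2*, against 69.7, 61.96 and 63.2 CPM in wild type (-1.04), and *clec-266* (-1.16).

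Aspartic proteases, which digest protein in the gut and lysosomes, had 5 of 11 tested members higher and 1 lower. *asp-1* was already among the most abundant transcripts. It had 2611, 2505 and 2683 CPM in *gsr-1a trxr-2*, against 659.5, 1330 and 1064 CPM in wild type (log2 fold change 1.35, SE 0.24, edgeR adjusted p = 0.0034). *asp-6* had 1513, 1513 and 1547 CPM in *gsr-1a trxr-2*, against 636, 868 and 692 CPM in wild type (1.06), and *asp-5*, its neighbour on chromosome V, rose by a log2 value of 0.84. *asp-8* had 124, 120 and 110 CPM in *gsr-1a trxr-2*, against 9.65, 7.08 and 5.99 CPM in wild type (3.97). The lowest library of *gsr-1a trxr-2* was above the highest of wild type in each of these genes. *asp-13* went the other way, with 154, 178 and 204 CPM in *gsr-1a trxr-2*, against 442, 342 and 307 CPM in wild type (log2 fold change -1.02).

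Cathepsin-like cysteine proteases were split evenly, with 3 of 11 tested members higher and 3 lower, and 3 and 2 that kept their call. *cpr-5* had 403, 465 and 445 CPM in *gsr-1a trxr-2*, against 152, 193 and 163 CPM in wild type (log2 fold change 1.37, SE 0.15, edgeR adjusted p = 0.00029). Its neighbour *cpr-8* (1.75) and *cpr-3* (1.65) rose as well. *cpr-6*, which has the highest CPM of the members called, had 579, 550 and 631 CPM in *gsr-1a trxr-2*, against 1122, 1060 and 979 CPM in wild type (-0.84, SE 0.14, edgeR adjusted p = 0.0027), the largest loss in mean CPM of any called gene. *cpr-4* had 83.0, 122.6 and 136 CPM in *gsr-1a trxr-2*, against 257, 266.5 and 212 CPM in wild type (-1.11). The strains did not overlap in either lowered gene. *nuc-1*, the lysosomal DNase that clears the DNA of dead cells, had 30.7, 35.1 and 34.2 CPM in *gsr-1a trxr-2*, against 123.4, 95.8 and 89.8 CPM in wild type (log2 fold change -1.63).

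Lysozymes, enzymes that cut bacterial cell walls, showed the same split between members. Of 11 tested, 2 were higher and 2 lower, and all 4 kept their call. The neighbours *lys-2* and *lys-1* on chromosome V rose. *lys-2* had 386, 401 and 345 CPM in *gsr-1a trxr-2*, against 79.7, 56.0 and 53.98 CPM in wild type (log2 fold change 2.58, SE 0.18, edgeR adjusted p = 1.1e-05), and *lys-1* had 364, 411 and 345 CPM in *gsr-1a trxr-2*, against 254, 205 and 199 CPM in wild type (0.77). These values brought *lys-1* and *lys-2* to about the same CPM in *gsr-1a trxr-2*. The invertebrate-type lysozyme gene *ilys-5* had 118, 168 and 185 CPM in *gsr-1a trxr-2*, against 756, 515 and 450 CPM in wild type (-1.87, SE 0.23, edgeR adjusted p = 0.00059). *lys-4* had 46.3, 85.1 and 74.0 CPM in *gsr-1a trxr-2*, against 393, 234 and 160 CPM in wild type (-1.94). Both were highest in wild-type replicate 1, and without that library their log2 fold changes were -1.62 and -1.53 with the call kept.

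Genes named for infection or for control by DAF-16 (*irg* and *dod*) had 7 of 18 tested members higher and 3 lower, and 3 and 1 of these kept their call. The number of higher genes was 3 without wild-type replicate 2 or 3 and 4 without *gsr-1a trxr-2* replicate 2. *dod-19* had 179, 225 and 179 CPM in *gsr-1a trxr-2*, against 85.9, 74.8 and 91.8 CPM in wild type (log2 fold change 1.21). *irg-1* rose by a log2 value of 1.70 at levels under 3 CPM, while *irg-5* fell by 2.04 on the log2 scale. Antimicrobial peptide genes (caenacins, saposins, fungus-induced peptides and others) had 9 of 66 tested members higher and 2 lower, close to the background on the higher side, and 2 and 1 kept their call. The higher number was 2 without *gsr-1a trxr-2* replicate 1 or 3 and 3 without wild-type replicate 2. The saposin-like gene *spp-4* had 10.1, 13.1 and 11.8 CPM in *gsr-1a trxr-2*, against 49.8, 26.4 and 22.3 CPM in wild type (-1.49). Of the *pals* genes, which respond to intracellular pathogens, 3 of 16 tested were higher and 1 kept its call.

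The intestine as a tissue was not uniformly up. *elt-2*, the factor that specifies it, had 19.2, 14.2 and 18.4 CPM in *gsr-1a trxr-2*, against 17.8, 14.97 and 16.5 CPM in wild type, with overlapping strains. Of 14 intestine markers 4 were higher and 1 lower. The intermediate filament gene *ifb-2* had 155, 192 and 167 CPM in *gsr-1a trxr-2*, against 57.7, 101 and 93.8 CPM in wild type (log2 fold change 1.02), and the gut esterase gene *ges-1* rose by 0.96. *vha-6*, the intestinal subunit of the proton pump that acidifies the gut lumen, had 597, 632 and 632 CPM in *gsr-1a trxr-2*, against 229, 324 and 268 CPM in wild type (1.18, SE 0.17, edgeR adjusted p = 0.0014). It was the only one of 21 vacuolar ATPase genes called, and their median log2 fold change was -0.01.

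Cytochromes P450, which oxidize foreign compounds and lipids, had 9 of 60 tested members higher (15%) and 8 lower (13.3%), and 5 in each direction kept their call. There were 5 higher members without wild-type replicate 2 or 3, and 5 lower ones without *gsr-1a trxr-2* replicate 1 or 3. *cyp-14A4* had 18.2, 15.5 and 15.8 CPM in *gsr-1a trxr-2*, against 0.435, 0.436 and 0.292 CPM in wild type (log2 fold change 5.40, SE 0.26, edgeR adjusted p = 5.7e-07). *cyp-33C8* had 295, 150 and 250 CPM in *gsr-1a trxr-2*, against 15.3, 10.7 and 15.4 CPM in wild type (4.07). *cyp-35A5* (-1.59), *cyp-35C1* (-1.31) and *cyp-25A1* (-1.79) fell, the last with 3.09, 3.09 and 3.02 CPM in *gsr-1a trxr-2*, against 14.4, 9.37 and 8.28 CPM in wild type. The *cyp-35A* genes are known to rise in worms exposed to foreign compounds, and the called member was on the lower side here.

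UDP-glucuronosyltransferases, which attach a sugar to such compounds, had 8 of 56 tested members higher (14.3%) and 4 lower (7.14%), and 8 and 2 kept their call. Both shares are close to the background, and the median log2 fold change was -0.08. The number lower was 2 without *gsr-1a trxr-2* replicate 1 or 3 and 7 without replicate 2. *ugt-62* had 593, 526 and 585 CPM in *gsr-1a trxr-2*, against 100, 73.7 and 64.4 CPM in wild type (log2 fold change 2.84, SE 0.20, edgeR adjusted p = 1.2e-05), and *ugt-19* had 72.0, 55.9 and 74.5 CPM in *gsr-1a trxr-2*, against 9.36, 7.95 and 7.11 CPM in wild type (3.05). The higher members did not overlap with wild type in these genes. *ugt-53* had 5.33, 3.19 and 4.07 CPM in *gsr-1a trxr-2*, against 10.3, 13.9 and 13.9 CPM in wild type (-1.60). ABC transporters, which pump compounds out of cells, had 14 of 48 tested members higher (29.2%) and 1 lower, and 9 and 1 kept their call, with 9 higher without *gsr-1a trxr-2* replicate 2 or 3. Half-transporters of the *wht* class had 4 of 8 tested members higher, all 4 of which kept their call, namely *wht-4* (log2 fold change 2.46), *wht-8* (2.39), *wht-5* (2.18) and *wht-6* (1.68), at 3.8 to 6.15 CPM on average in *gsr-1a trxr-2*. The lowered transporter was *pmp-5*, of the class of peroxisomal membrane transporters, with 75.2, 126 and 111.7 CPM in *gsr-1a trxr-2*, against 224, 224 and 225 CPM in wild type (-1.10).

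Of 7 cadmium-responsive and metallothionein genes tested, 2 were higher and 1 lower, and 4 were not called (*cdr-1*, *cdr-6*, *cdr-7* and *mtl-1*). The cadmium-responsive genes *cdr-4* (12407428 to 12408592) and *cdr-2* (12414640 to 12415709) flank the heme-responsive gene *hrg-2* (12409369 to 12410513) on the same strand, and these 3 genes rose. *cdr-2* had 118, 96.4 and 105.0 CPM in *gsr-1a trxr-2*, against 15.5, 13.7 and 13.2 CPM in wild type (log2 fold change 2.92, SE 0.20, edgeR adjusted p = 1.1e-05). *cdr-4* had 336, 355 and 327 CPM in *gsr-1a trxr-2*, against 51.8, 48.18 and 44.6 CPM in wild type (2.82). *hrg-2* had 8.16, 4.98 and 5.84 CPM in *gsr-1a trxr-2*, against 1.09, 1.42 and 1.46 CPM in wild type (2.24). *mtl-2*, a metallothionein that also responds to cadmium, had 3.62, 3.14 and 3.93 CPM in *gsr-1a trxr-2*, against 26.1, 13.3 and 13.6 CPM in wild type (-2.31), so the called genes did not share a direction. Among 15 iron and heme genes tested, 4 were higher, all of which kept their call, and 1, *smf-3*, was lower (-1.20). That call was lost without *gsr-1a trxr-2* replicate 1 or 3 or wild-type replicate 3. *hrg-7*, a secreted protease-like protein that signals heme status between tissues, had 281, 138 and 225 CPM in *gsr-1a trxr-2*, against 51.3, 49.8 and 50.8 CPM in wild type (2.08, SE 0.22, edgeR adjusted p = 0.00026). The heme transporter gene *hrg-1* (1.43) and the mitoferrin gene *mfn-1* (0.66), which brings iron into mitochondria, were the others.

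Mitochondrial chaperones are the usual readout of the UPRmt, and 1 of 6 was called, with 4 above and 2 below 0 on the log2 scale. *hsp-6*, the mitochondrial Hsp70, had 1092, 1015 and 1188 CPM in *gsr-1a trxr-2*, against 243, 729 and 648 CPM in wild type (log2 fold change 1.02, SE 0.36, edgeR adjusted p = 0.069). The strains did not overlap, and the spread of wild type came from replicate 1. Without that library the log2 fold change was 0.67 (edgeR adjusted p = 0.12), and without replicate 1 of all 4 strains it was 0.67 with an edgeR adjusted p of 0.0055. Its means in *gsr-1a* and *trxr-2* animals were 809 and 810 CPM. *hsp-60* had 579, 532 and 652 CPM in *gsr-1a trxr-2*, against 188, 490 and 449 CPM in wild type (0.65, edgeR adjusted p = 0.24, and 0.33 without replicate 1 of all 4 strains). *dnj-10*, a DnaJ co-chaperone of mitochondria, was the chaperone called, with 95.7, 95.9 and 102 CPM in *gsr-1a trxr-2*, against 72.0, 67.1 and 69.97 CPM in wild type (0.49, SE 0.08, edgeR adjusted p = 0.0030). Among 12 regulators and proteases of the response, the protease genes *spg-7* (0.68) and *ppgn-1* (0.57) were higher. Neither kept its call, with 1 higher without wild-type replicate 1 or 3 or without *gsr-1a trxr-2* replicate 2 and none without *gsr-1a trxr-2* replicate 1 or 3. The response's own factor gene *atfs-1* had 140, 114.2 and 128 CPM in *gsr-1a trxr-2*, against 92.7, 105.4 and 111 CPM in wild type (0.31, edgeR adjusted p = 0.11). None of 15 import genes was called, with 4 higher without replicate 1 of all 4 strains.

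Of 13 genes tested for fission, fusion and mitophagy, 4 were higher and 1 lower, while the other 8 were not called and the median log2 fold change was -0.08. *drp-1*, the dynamin that divides the outer membrane, had 355, 309 and 353 CPM in *gsr-1a trxr-2*, against 134, 181 and 170 CPM in wild type (log2 fold change 1.07, SE 0.15, edgeR adjusted p = 0.0012). *mff-2*, its membrane receptor, had 102, 75.4 and 84.1 CPM in *gsr-1a trxr-2*, against 52.3, 35.7 and 39.2 CPM in wild type (1.04), and *fis-1* rose by 1.95 at levels under 3 CPM. All 3 kept their call. *sqst-1*, the cargo receptor of autophagy, rose by 0.99, and *pdr-1*, the Parkin ubiquitin ligase of mitophagy, fell by 0.43 on the log2 scale, both without keeping the call. All 9 members not called higher lay below 0 on the log2 scale.

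Enzymes of the thioredoxin and glutathione systems had few calls in the main fit apart from the deleted gene. Of 34 tested, 1 was higher, the glutathione peroxidase gene *gpx-7* (log2 fold change 0.65, call not kept), and 1 lower, *trxr-2*. Without replicate 1 of all 4 strains, 4 were higher and 4 lower, against 2082 and 1741 of the 15004 genes tested. *trx-2*, the mitochondrial thioredoxin that TRXR-2 reduces, had 88.0, 70.5 and 79.3 CPM in *gsr-1a trxr-2*, against 65.5, 51.02 and 50.5 CPM in wild type (0.51, edgeR adjusted p = 0.077). It was called without wild-type replicate 1 (0.64, edgeR adjusted p = 0.049) and without replicate 1 of all 4 strains (0.55, edgeR adjusted p = 0.0027). The cytosolic reductase gene *trxr-1* had 147, 160 and 173 CPM in *gsr-1a trxr-2*, against 178, 159 and 154 CPM in wild type, with overlapping strains. The mitochondrial superoxide dismutase *sod-2* (-0.21) and peroxiredoxin *prdx-3* (-0.02) were not called either. Glutathione S-transferases had 5 of 40 tested members higher, a share of 12.5% that is the same as over all genes, and 2 kept their call, one of them *gst-6* with 21.6, 21.6 and 19.9 CPM in *gsr-1a trxr-2*, against 8.41, 8.06 and 6.72 CPM in wild type (1.45).

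The respiratory chain and the citrate cycle had few calls. Of 48 nuclear subunits of oxidative phosphorylation, 4 were higher (8.33%) and none lower, with 28 above and 20 below 0 on the log2 scale, and the 1 that kept its call, the cytochrome c gene *cyc-2.2*, had 26.3, 11.5 and 23.2 CPM in *gsr-1a trxr-2*, against 3.34, 4.90 and 4.68 CPM in wild type (log2 fold change 2.23). Among the *gsr-1a trxr-2* libraries it was lowest in replicate 2, as the *msp* sum was. There were 2 higher subunits without *gsr-1a trxr-2* replicate 1 or 3, and 14 without replicate 1 of all 4 strains. Of 28 genes of the citrate and glyoxylate cycles, none was called, although 24 had a log2 fold change above 0 and the median was 0.27. *aco-2*, the mitochondrial aconitase, had 1165, 1080 and 1219 CPM in *gsr-1a trxr-2*, against 451, 868 and 840 CPM in wild type (0.68, edgeR adjusted p = 0.064), and the glyoxylate enzyme gene *icl-1* had 781, 559 and 780 CPM in *gsr-1a trxr-2*, against 105.2, 411 and 404 CPM in wild type (1.2, edgeR adjusted p = 0.064). Both are lowest in wild-type replicate 1, and 11 of the 28 were called higher without replicate 1 of all 4 strains. Mitochondrial ribosomal proteins had 1 of 70 tested members higher. In the synthesis of ubiquinone, the electron carrier of the chain, 2 of 8 genes were higher and kept their call. *coq-1*, the first enzyme of the path, had 153, 130 and 146 CPM in *gsr-1a trxr-2*, against 59.4, 48.3 and 49.5 CPM in wild type (1.45, SE 0.13, edgeR adjusted p = 6.4e-05), and *coq-8* rose by 0.74.

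Glycolysis rose in several of its steps. Of 21 genes of glycolysis and gluconeogenesis tested, 6 were higher (28.6%) and none lower, and 5 kept their call, with a median log2 fold change of 0.38. Without wild-type replicate 1 the median was 0.21, with 6 higher. *aldo-1*, an aldolase, had 404, 302 and 374 CPM in *gsr-1a trxr-2*, against 58.4, 101 and 132 CPM in wild type (1.89, SE 0.29, edgeR adjusted p = 0.0022). The adjacent glyceraldehyde-3-phosphate dehydrogenase genes on the X chromosome moved together. *gpd-2* had 713.3, 586 and 669 CPM in *gsr-1a trxr-2*, against 194, 301 and 333 CPM in wild type (1.25), and *gpd-3* had 932, 750 and 815 CPM in *gsr-1a trxr-2*, against 467, 463 and 502 CPM in wild type (0.80). *ldh-1*, the lactate dehydrogenase that regenerates NAD+ in the cytosol, averaged 195 ± 26 CPM in *gsr-1a trxr-2* and 116 ± 5.85 CPM in wild type (SD, n = 3 each, log2 fold change 0.75). None of these genes overlapped between strains. *enol-1*, enolase, had 1321, 1089 and 1243 CPM in *gsr-1a trxr-2*, against 449, 766 and 841 CPM in wild type (0.83, edgeR adjusted p = 0.040), a call that held in 1 of the 6 fits, the one without wild-type replicate 3 (0.59 and adjusted p = 0.097 without wild-type replicate 1). The phosphoenolpyruvate carboxykinase gene *pck-3* rose by 1.85 at 8.96 CPM on average.

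Fatty acid desaturases and elongases went in both directions, with 3 of 16 tested members higher and 5 lower, 1 and 2 of which kept their call. There were 3 lower members without *gsr-1a trxr-2* replicate 1 and 2 without its replicate 3. Stearoyl-CoA desaturation by *fat-5*, *fat-6* and *fat-7* makes monounsaturated fatty acids. *fat-7* had 32.96, 103.6 and 48.19 CPM in *gsr-1a trxr-2*, against 206, 269 and 272 CPM in wild type (log2 fold change -2.02, SE 0.35, edgeR adjusted p = 0.0030). *fat-5* had 10.1, 27.1 and 9.18 CPM in *gsr-1a trxr-2*, against 54.9, 46.4 and 69.5 CPM in wild type (-1.87, called in 4 of 6 fits). Both genes were highest in replicate 2 of *gsr-1a trxr-2*, the library with the fewest *msp* counts. *fat-6* had 303, 467 and 294 CPM in *gsr-1a trxr-2*, against 360, 377 and 449 CPM in wild type, with overlapping strains (-0.16, adjusted p = 0.60). *elo-5* and its neighbour *elo-6*, elongases that make branched-chain fatty acids, fell by 0.93 and 0.78 on the log2 scale, with 130, 187 and 138 CPM of *elo-5* in *gsr-1a trxr-2*, against 340, 248 and 278 CPM in wild type. *fat-2*, which starts polyunsaturated fatty acid synthesis, had 1390, 1077 and 1246 CPM in *gsr-1a trxr-2*, against 849, 667 and 662 CPM in wild type (0.77, edgeR adjusted p = 0.012).

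Genes that activate and break down fatty acids had a few members on each side. Of 21 acyl-CoA synthetases, 4 were higher and kept their call, led by *acs-18* (log2 fold change 2.29), and 1 was lower. Of 29 acyl-CoA dehydrogenases, enoyl-CoA hydratases and related genes, 3 were higher and 3 lower, all of which kept their call. *acdh-8* had 21.8, 11.3 and 23.3 CPM in *gsr-1a trxr-2*, against 3.63, 4.36 and 5.41 CPM in wild type (2.07). *ech-1.1* (-1.53), *cpt-5* (-1.15) and *acdh-2* (-0.67) were the lower ones. *hach-1*, a hydrolase of the propionate shunt, had 252, 299 and 299 CPM in *gsr-1a trxr-2*, against 693, 489 and 525 CPM in wild type (-1.01, SE 0.15, edgeR adjusted p = 0.0019), and was the only gene called of 14 in propionate breakdown. *dct-16* had 432, 508 and 459 CPM in *gsr-1a trxr-2*, against 1036, 747 and 667 CPM in wild type (-0.81), and was called in 3 of the 6 fits, not without wild-type replicate 1 (-0.61) or *gsr-1a trxr-2* replicate 1 or 3. The lipid-droplet dehydrogenase gene *dhs-3* had 37.7, 39.4 and 39.5 CPM in *gsr-1a trxr-2*, against 64.7, 59.8 and 61.2 CPM in wild type (-0.67), and 4 of 30 short-chain dehydrogenases tested were lower and none higher.

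Yolk genes could be read only with the standing of wild-type replicate 1 in view. None of the 6 *vit* genes was called. *vit-3* had 364, 639 and 581 CPM in *gsr-1a trxr-2*, against 262, 2940 and 2789 CPM in wild type (log2 fold change -1.92, edgeR adjusted p = 0.088), and without wild-type replicate 1 it was -2.44 with an adjusted p of 0.011. *vit-5* had 2539, 4506 and 3917 CPM in *gsr-1a trxr-2*, against 670, 10050 and 9163 CPM in wild type. Without replicate 1 of all 4 strains, *vit-3* (-2.24), *vit-1* (-1.44), *vit-4* (-1.32) and *vit-5* (-1.20) were called lower, while *vit-2* (0.14) and *vit-6* (0.28) were not called. *vit-2* had 16460, 14200 and 17990 CPM in *gsr-1a trxr-2*, against 773, 15150 and 13850 CPM in wild type. The *vit* genes thus differed among themselves.

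Cuticle collagens had a high median change but few stable calls. Of 156 *col* genes, 120 were tested, 24 were higher (20.0%) and 3 lower, with a median log2 fold change of 0.90, and 3 and 1 kept their call. The higher number was 5 without wild-type replicate 1 or *gsr-1a trxr-2* replicate 2, 8 without wild-type replicate 2 or 3, 12 without *gsr-1a trxr-2* replicate 3, and 59 without replicate 1 of all 4 strains. *col-135* had 79.4, 69.7 and 85.9 CPM in *gsr-1a trxr-2*, against 16.4, 35.2 and 25.6 CPM in wild type (1.60, SE 0.23, edgeR adjusted p = 0.0013). *col-92* (1.75) and *col-168* (1.88) also kept their call. The adult collagen gene *col-19*, which marks the adult cuticle, had 1940, 1793 and 1949 CPM in *gsr-1a trxr-2*, against 983, 1471 and 1413 CPM in wild type and was not called (edgeR adjusted p = 0.16). Collagens of body shape and furrows had 8 of 20 members higher, of which none kept its call, with 0 without wild-type replicate 1 or 2 or without *gsr-1a trxr-2* replicate 2, 2 without wild-type replicate 3 and 3 without *gsr-1a trxr-2* replicate 3. Without replicate 1 of all 4 strains, 12 were higher. The median log2 fold change of this list was 1.57, and 1.90 in that fit. *dpy-5* had 20.7, 66.2 and 24.5 CPM in *gsr-1a trxr-2*, against 4.21, 9.31 and 9.31 CPM in wild type (2.28). The list also held lower members, with 7 of 20 below 0 on the log2 scale. The number called lower was 1, against 4 without wild-type replicate 1 and 7 without replicate 1 of all 4 strains. The member called was *dpy-10*, with 11.9, 8.99 and 9.44 CPM in *gsr-1a trxr-2*, against 19.1, 25.3 and 25.1 CPM in wild type (-1.20, call kept). Cuticlin-like *cutl* genes, components of other cuticle layers, had 6 of 20 tested members lower and none higher, with 1 lower without *gsr-1a trxr-2* replicate 3. *cutl-2* kept its call with 2.83, 1.35 and 2.62 CPM in *gsr-1a trxr-2*, against 8.34, 9.15 and 8.62 CPM in wild type (-1.95).

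Of the gene lists tested, the F-box genes had the largest number of lower calls, and their proteins bring substrates to SCF ubiquitin ligases through the Skp1-related adaptors (*skr*). Of 322 F-box genes in the files, 220 were tested, 54 were lower (24.6%) and 10 higher, with a median log2 fold change of -0.48. Of the lower members, 31 passed a fold of 2, and 9 lower and 7 higher members kept their call. The lower number was 29 without wild-type replicate 1, 17 without *gsr-1a trxr-2* replicate 1, 19 without wild-type replicate 2, 22 without wild-type replicate 3 and 12 without *gsr-1a trxr-2* replicate 3. Subclasses differed in direction. Of 92 *fbxb* genes 39 were lower and none higher (median -0.87), and of 34 *fbxc* genes 8 were lower and none higher (-0.59), while of 94 *fbxa* genes 7 were lower and 10 higher (0.17). *fbxb-75* had 5.33, 5.04 and 4.98 CPM in *gsr-1a trxr-2*, against 11.8, 12.3 and 10.04 CPM in wild type (-1.15, SE 0.23, edgeR adjusted p = 0.0055). *fbxa-74* had 14.01, 15.3 and 16.1 CPM in *gsr-1a trxr-2*, against 5.80, 6.59 and 5.12 CPM in wild type (1.38). Near-identical F-box copies lose pairs that align to several places, so the values of single members are uncertain.

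The adaptors were lower as well. Of 19 *skr* genes tested, 8 were lower and none higher, and 3 kept their call, also the number called without *gsr-1a trxr-2* replicate 3. *skr-21* had 12.96, 11.9 and 12.3 CPM in *gsr-1a trxr-2*, against 22.8, 27.7 and 27.9 CPM in wild type (log2 fold change -1.08, SE 0.22, edgeR adjusted p = 0.0070). Genes first transcribed in the zygote had 7 of 54 tested members lower and 1 higher, with a median log2 fold change of -0.55. None kept its call, and the lower number was 2 without *gsr-1a trxr-2* replicate 1 or wild-type replicate 2, 3 without wild-type replicate 3 and 0 without *gsr-1a trxr-2* replicate 3. *sdz-30* had 17.7, 22.8 and 18.9 CPM in *gsr-1a trxr-2*, against 37.4, 30.4 and 32.8 CPM in wild type (-0.76). Developmental transcription factors of the *ceh* class had 8 of 47 tested members lower and none higher. Of these 1 kept its call, and the lower number was 4 without wild-type replicate 1 and 1 without *gsr-1a trxr-2* replicate 3. The forkhead class *fkh* had 4 of 8 lower, of which 2 kept their call, and 1 higher, which did not. *fkh-4* had 5.86, 7.04 and 5.44 CPM in *gsr-1a trxr-2*, against 12.6, 11.1 and 11.1 CPM in wild type (-0.92), and the neighbouring *fkh-3* fell by 0.79 on the log2 scale. *efl-3*, an atypical E2F factor, had 19.2, 17.9 and 16.8 CPM in *gsr-1a trxr-2*, against 30.5, 35.8 and 36.2 CPM in wild type (-0.93). The levels of *fkh-4* and *efl-3* did not overlap between strains.

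Genes of growth and division had few calls in the main fit. Lower were 7.6% of cell cycle, 8.45% of ribosome biogenesis and 8% of splicing genes and 11.6% of translation factors, against 6.3% of genes tested. Of 79 genes of the cell cycle and DNA replication, 6 were lower and none higher, with a median log2 fold change of -0.18, and *cdk-4*, the G1 kinase, was the one that kept its call. It had 15.3, 17.1 and 15.7 CPM in *gsr-1a trxr-2*, against 30.1, 25.1 and 25.8 CPM in wild type (-0.75, SE 0.15, edgeR adjusted p = 0.0050). There were 3 lower genes without wild-type replicate 1 and 1 without *gsr-1a trxr-2* replicate 1 or 3, and 27 without replicate 1 of all 4 strains. Ribosome biogenesis genes had 6 of 71 tested members lower (median -0.23), splicing genes 4 of 50 (-0.22) and translation factors 5 of 43 (-0.11), with none higher and none that kept its call. Without *gsr-1a trxr-2* replicate 3 none of these 3 lists had a lower member. Without replicate 1 of all 4 strains they had 18, 15 and 10 lower and 2, 1 and 1 higher members, in the same order. That fit called 1741 of the 15004 genes tested lower and 2082 higher. The lower share was smaller than in these 3 lists and the cell cycle list. Cytosolic ribosomal proteins (86 tested) and proteasome subunits (33 tested) had no call in either direction, with medians of -0.18 and -0.21. Of these genes, 59 and 26 lay below 0 on the log2 scale, against 7201 of all 15004 tested. Without replicate 1 of all 4 strains, 2 ribosomal protein genes were lower and 1 higher, and 4 proteasome genes were lower and none higher.

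**Figure D5:**
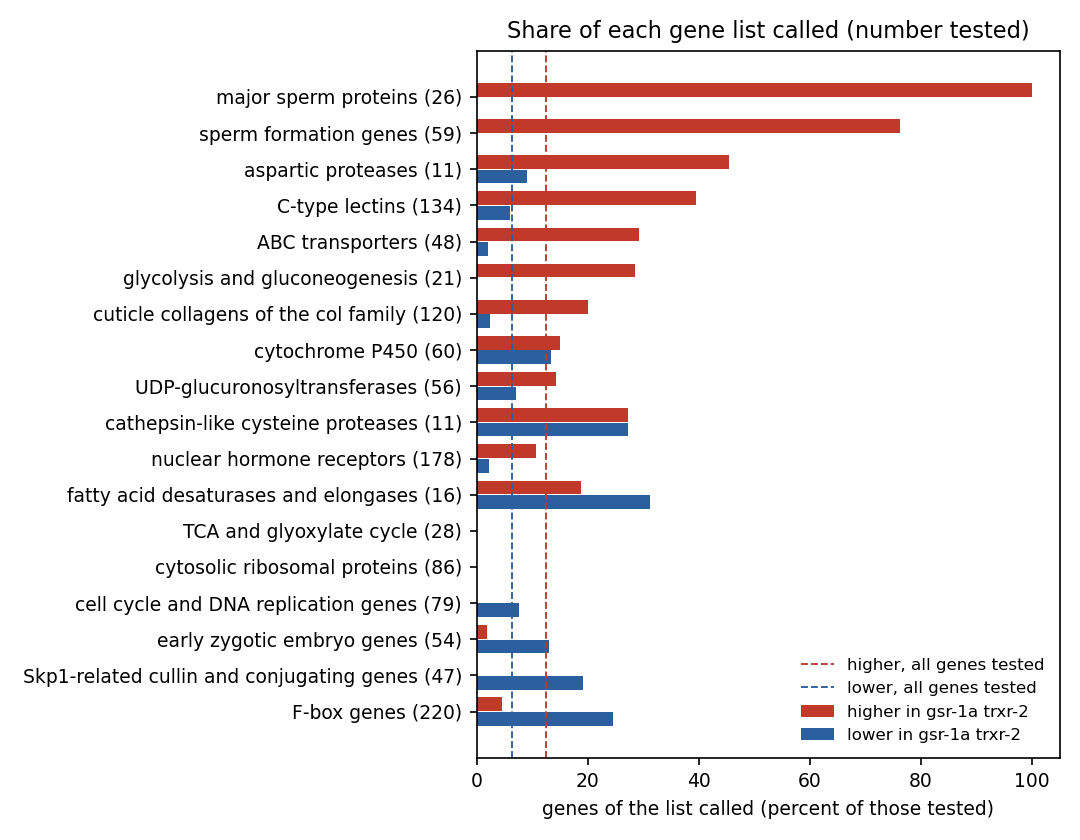
Bars give the percent of the tested members of each gene list that were higher (red) or lower (blue) in *gsr-1a trxr-2* than in wild type, with the number tested in parentheses and dashed lines at the 12.5% and 6.3% of all genes. Major sperm proteins (100%) and sperm formation genes (76.3%) stand at the top of the higher side and desaturases (31.3%), cathepsins (27.3%) and F-box genes (24.6%) reach furthest on the lower side, while the citrate cycle and ribosomal proteins have no call.

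Of 34 bZIP and bHLH factors tested, 4 were higher and 6 lower (17.6%), and 2 and 1 kept their call. There were 2 higher without wild-type replicate 2 or *gsr-1a trxr-2* replicate 2 or 3. The lower number was 1 without wild-type replicate 2 or *gsr-1a trxr-2* replicate 3 and 3 without wild-type replicate 3 or *gsr-1a trxr-2* replicate 2. In the *hlh* class, 4 of 10 were lower and 1 higher. The bHLH repressor gene *hlh-11*, which restrains fat use, had 108, 89.6 and 91.8 CPM in *gsr-1a trxr-2*, against 34.2, 49.1 and 48.8 CPM in wild type (log2 fold change 1.13, SE 0.14, edgeR adjusted p = 0.00067). The bZIP gene *zip-11* rose by 1.10, with 13.5, 12.7 and 13.1 CPM in *gsr-1a trxr-2*, against 5.66, 6.10 and 6.48 CPM in wild type, and *zip-8* fell by 0.86 on the log2 scale. *dlk-1*, a stress-activated MAP kinase kinase kinase of neurons, had 58.4, 66.4 and 61.4 CPM in *gsr-1a trxr-2*, against 31.7, 33.4 and 41.3 CPM in wild type (0.81). Nuclear hormone receptors, ligand-controlled factors that regulate metabolism and detoxification, had 19 of 178 tested members higher and 4 lower, under the background in the lower direction, and 9 and 1 kept their call. There were 10 higher without wild-type replicate 2 and 11 without wild-type replicate 3 or *gsr-1a trxr-2* replicate 3. *nhr-193* had 8.75, 9.42 and 9.90 CPM in *gsr-1a trxr-2*, against 3.41, 2.78 and 2.58 CPM in wild type (1.68). None of 20 ER stress genes was called. Of 18 small heat shock and Hsp70 genes, *hsp-17* was higher, with 84.4, 93.4 and 71.1 CPM in *gsr-1a trxr-2*, against 26.2, 22.8 and 32.1 CPM in wild type (1.62, SE 0.17, edgeR adjusted p = 0.00024), and *hsp-16.41* was lower without keeping its call (-2.34). Lower members of this list numbered 2 without wild-type replicate 1 and 8 without replicate 1 of all 4 strains. In the latter fit, 1741 of all 15004 genes tested were lower.

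The single mutants differed in where they lay, here given as values side by side from strains that share the wild-type libraries. *clec-4* averaged 275 ± 24.2 CPM in *gsr-1a trxr-2*, 8.11 in *gsr-1a*, 8.65 in *trxr-2* and 9.23 ± 1.19 CPM in wild type (SD, n = 3 libraries). *lys-2* averaged 378 ± 29.3 CPM in *gsr-1a trxr-2*, 52.5 in *gsr-1a*, 52.9 in *trxr-2* and 63.2 ± 14.3 CPM in wild type. *coq-1* averaged 143 ± 12.01 CPM in *gsr-1a trxr-2*, 48.4 in *gsr-1a*, 48.8 in *trxr-2* and 52.4 ± 6.09 CPM in wild type. *gid-8* had another order, with 6.03 ± 0.356 CPM in *gsr-1a trxr-2*, 5.19 in *gsr-1a*, 26.6 in *trxr-2* and 26.9 ± 2.56 CPM in wild type, so that the strains with the *gsr-1* deletion were low. *msp-76* averaged 60.7 ± 24.6 CPM in *gsr-1a trxr-2*, 29.4 in *gsr-1a*, 14.4 in *trxr-2* and 0.116 ± 0.155 CPM in wild type. *F54E4.2* averaged 1.11 ± 0.449 CPM in *gsr-1a trxr-2*, 3.62 in *gsr-1a*, 4.82 in *trxr-2* and 8.75 ± 2.6 CPM in wild type. *cutl-2* averaged 2.27 ± 0.799 CPM in *gsr-1a trxr-2*, 2.9 in *gsr-1a*, 3.49 in *trxr-2* and 8.7 ± 0.409 CPM in wild type. In the last 3 genes both single mutants lay on the same side of wild type as the double mutant. Differences between the mutant strains were not tested here.

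Markers of other tissues were set beside these results. The 37 muscle genes summed to 13630, 13140 and 12710 CPM in *gsr-1a trxr-2*, against 7661, 10450 and 11870 CPM in wild type, with none called higher and 1 lower. Neuronal markers had 3 of 14 members higher, none of which kept its call, and *snb-1*, a synaptic vesicle protein gene, had 145, 131 and 128 CPM in *gsr-1a trxr-2*, against 130, 125 and 129 CPM in wild type. The sperm gene sums did not overlap between strains, and their part in the other rises was not tested.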

How the data were processed

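RNA was sequenced from 12 libraries of 4 strains, with mRNA enriched by poly(A) and strand kept. The authors deposited whole-number counts of read pairs per gene, made with HISAT2 and featureCounts 2.0.0 on WBcel235 with Ensembl release 97. Pairs were counted over whole gene spans, introns included, and pairs aligned to several places or genes were not counted, so members of near-identical families can lose counts. Of 46904 genes, 93.8% had a symbol in the reference table.

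Counts were fitted with edgeR 4.0.16 in R 4.3.3 (TMM normalization, filterByExpr, quasi-likelihood test) on all 12 libraries with 1 mean per strain, which left 8 residual degrees of freedom. P-values were adjusted by Benjamini-Hochberg over the 15004 genes tested. The filter can pass a gene through the strain in which it is high, so counts of called members describe the genes that passed it. Standard errors (SE) are on the log2 scale.

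Genes named are the mutated genes, the 15 largest rises and falls among calls with 5 CPM or more that held without each library, the 5 largest gains and losses in CPM, and up to 4 called genes per list and direction. Other genes were chosen after their values were seen. The gene lists and the genes compared were chosen with earlier results of these data known. The labels do not say whether replicates are separate cultures. The study describes its sequencing data as coming from independent experiments with biological replicates, without saying how these map to the libraries. P-values set the difference between strains against the spread between these samples, part of which may be technical. The alternatives tried were a DESeq2 fit (version 1.42.0), RLE factors, a likelihood ratio test in edgeR, other filters, the 6 libraries alone, a replicate block, each library left out and replicate 1 of all strains left out. The fit was tested on simulated data.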

Additional observations from a re-analysis of the deposited data

How the results depend on the processing

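No gene called in the main fit was called in the opposite direction under any alternative. Among named genes, none changed sign where it was called in the main or the alternative fit. Sign changes of named genes called in neither fit did occur and were not counted as reversals. Of 4513 values of 323 named genes, 541 lost their call and 6 gained one. Fits without 1 of the 6 libraries gave 1197 to 1859 higher and 259 to 698 lower genes. The number of lower genes moved more than that of higher genes. It was 945 as reported, 1439 with DESeq2, 1506 with the replicate number as a block, 1746 without replicate 1 of all 4 strains and 251 past a fold of 2, for causes that were not tested in the first 3 cases. The split of higher to lower was 2086 to 1439 with DESeq2 and 2096 to 1746 without replicate 1 of all 4 strains, against 1879 to 945. With RLE factors it was 1885 to 1036.

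A pairing by replicate number was not seen between *gsr-1a trxr-2* and wild type, the only strains compared in this way. The correlations of the deviations of same-numbered *gsr-1a trxr-2* and wild-type libraries were -0.04, -0.04 and 0.22, and the block gave 2072 higher and 1506 lower genes. Libraries with unlike numbers gave -0.25 to 0.18. With 1 same-numbered pair per replicate, these correlations cannot decide whether the libraries are paired. Whether the libraries numbered 1 share a batch was not tested. In these, the *vit* genes took 0.342% of counts in wild type and 1.79% in *trxr-2*, but 4.28% in *gsr-1a* and 3.57% in *gsr-1a trxr-2*. Depth limits genes with few counts, where a single wild-type count decides a fold. With 3 libraries a strain and wild-type replicate 1 apart from the others, counts of several gene lists moved by over 1.5 times when 1 library was left out.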

Other observations

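Some further families had called members, at shares near or under the 12.5% higher and 6.3% lower of all genes tested. The mitochondrial rRNA gene WBGene00014454 (MtDNA, 898 to 1593) had 65.9, 57.3 and 66.4 CPM in *gsr-1a trxr-2*, against 15.9, 6.21 and 7.75 CPM in wild type (log2 fold change 2.68, SE 0.45, edgeR adjusted p = 0.0027). Libraries were made from poly(A) RNA, which most rRNA lacks. It was the only one of 14 mitochondrial genome genes called, and 11 were higher without replicate 1 of all 4 strains.

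Carboxylesterases and glycosyl hydrolases had 9 of 70 tested members higher (12.9%) and 4 lower (5.71%), and 5 and 2 kept their call. *cest-8* had 8.62, 9.31 and 10.42 CPM in *gsr-1a trxr-2*, against 1.60, 0.871 and 1.46 CPM in wild type (log2 fold change 2.85, edgeR adjusted p = 7.7e-05). Solute carriers and aquaporins had 15 of 130 tested members higher (11.5%) and 2 lower (1.54%), with 8 higher without *gsr-1a trxr-2* replicate 3. The vesicular transporter family member *slc-17.4* had 53.7, 50.8 and 50.4 CPM in *gsr-1a trxr-2*, against 25.5, 27.5 and 27.04 CPM in wild type (0.95).

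Insulin-like peptides had 2 of 24 tested members higher (8.33%) and 1 lower (4.17%). *ins-31* had 62.8, 12.1 and 56.5 CPM in *gsr-1a trxr-2*, against 1.02, 4.08 and 7.75 CPM in wild type (log2 fold change 3.32, edgeR adjusted p = 0.011), and its libraries followed the order of the *msp* sums. Autophagy genes had 2 of 62 tested members higher (3.23%) and 3 lower (4.84%). The lower members that kept their call were *epg-2*, with 124, 106 and 118 CPM in *gsr-1a trxr-2*, against 234.8, 201 and 200.2 CPM in wild type (-0.87), and *atg-16.1* (-0.62).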
